A study of Mus musculus with 6 samples.

Results

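Of the 45101 probe sets on each array, 16 were examined, which the defining rule assigns by identifier to 9 genes for transcription factors of the myeloid lineages. They were compared between neutrophils lacking the microRNA miR-223 (3 arrays) and wild-type neutrophils (3 arrays). The genes are Cebpa, Cebpb, Cebpd, Spi1, Gfi1, Irf8, Runx1, Fli1 and Klf5. Of these, 4 are read by 1 probe set and 5 by several. The pairing of probe set and gene comes from that rule and could not be checked against an array annotation here. Both genotypes were grown from bone marrow progenitors for 6 days in a stable-isotope (SILAC) medium with the cytokines G-CSF and SCF, then for 42 hours after SCF was withdrawn, and live cells were taken with magnetic beads. The cells are therefore neutrophils that matured in a dish from marrow of miR-223 null or wild-type animals, not cells taken from blood. The strain, age and sex of the mice and the number of animals behind an array are not given in the labels, so p-values here speak of the variation among these arrays alone, part or all of which may be technical.

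Neutrophils form from a progenitor shared with monocytes, and the balance of a few DNA-binding proteins sets which way that progenitor goes. C/EBP alpha and PU.1, the product of Spi1, open the granulocyte and monocyte programme. GFI1 represses monocytic genes and is needed for neutrophils, while IRF8 drives monocytes and dendritic cells and restrains neutrophil formation. C/EBP factors and PU.1 are also known to act on the gene of miR-223 itself, so the factors examined here include activators of the deleted microRNA.

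The sequences below are those the comparison starts from. The microRNA missing from the null cells is encoded on chromosome X (chrX:96242884-96242905, plus strand, GRCm38.p6, RefSeq, for the 3p strand). A microRNA recognises messenger RNA mainly through its seed, bases 2 to 8, given in capitals, and neither seed occurs in another mature mouse microRNA of the 1679 in the RefSeq table. Whether the 9 messenger RNAs carry matches to these seeds was not analysed here.

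mmu-miR-223-3p: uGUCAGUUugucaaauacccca

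mmu-miR-223-5p: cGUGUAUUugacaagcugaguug

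For the factors, 3 upstream sequences are shown as examples. As described further on, the replicate 1 arrays of both genotypes were the lowest for Cebpa and Cebpb and the highest for 1 of the 2 Irf8 probe sets. They were also the lowest for Runx1 and the highest for Gfi1, whose windows are not shown. Each sequence shown is the 250 bases before the RefSeq start of the gene on GRCm38.p6. The sequences lie at chr7:35119043-35119292 for Cebpa, chr2:167688665-167688914 for Cebpb and chr8:120736108-120736357 for Irf8, all on the plus strand. Capitals mark matches to the letters searched.

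Cebpa: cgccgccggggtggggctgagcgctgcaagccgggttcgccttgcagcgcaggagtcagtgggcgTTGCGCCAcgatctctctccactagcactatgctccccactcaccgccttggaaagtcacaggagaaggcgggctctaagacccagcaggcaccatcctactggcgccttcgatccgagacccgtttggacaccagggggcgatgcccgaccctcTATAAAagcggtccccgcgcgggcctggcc

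Cebpb: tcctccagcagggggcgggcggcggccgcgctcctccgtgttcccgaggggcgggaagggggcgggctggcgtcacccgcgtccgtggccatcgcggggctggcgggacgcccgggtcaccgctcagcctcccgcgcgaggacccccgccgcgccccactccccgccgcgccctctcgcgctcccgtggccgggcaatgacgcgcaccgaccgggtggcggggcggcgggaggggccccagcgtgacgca

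Irf8: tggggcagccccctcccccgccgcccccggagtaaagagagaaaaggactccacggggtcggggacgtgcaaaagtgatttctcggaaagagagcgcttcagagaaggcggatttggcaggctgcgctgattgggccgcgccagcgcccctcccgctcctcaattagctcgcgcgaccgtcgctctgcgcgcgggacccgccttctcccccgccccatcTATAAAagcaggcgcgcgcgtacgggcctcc

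The letters TATAAA, the TATA box searched on the gene's own strand, begin 30 bases before the start of Cebpa and 31 bases before that of Irf8, and 7.59% of the 32851 RefSeq windows of the same length hold them. Cebpa also holds ttgcgcca, which fits the C/EBP-type letters TTGCGCNA and begins 185 bases upstream. On either strand, 0.673% of all windows hold such a match. This pattern was chosen after the Cebpa window had been read. None of the 3 windows holds the stricter C/EBP letters TTGCNNAA (9.56% of windows), the PU.1-type letters AGAGGAA (8.55%) or the RUNX letters TGTGGT (14.0%), each searched on both strands. The table holds 8 windows for Cebpa, Cebpb, Gfi1, Irf8 and Runx1, and over the others the only match to any of these letters was TTGCTGAA, a C/EBP match beginning 143 bases upstream of 1 Gfi1 start. The second Irf8 window holds none. The matches describe the letters only.

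Among the C/EBP genes, Cebpd was higher and Cebpb lower in miR-223 null than in wild-type neutrophils in every replicate. All 3 replicates differed in 1 direction for 46.6% of all probe sets kept, so such agreement was common on these arrays. Cebpa was also higher in null in 3 of 3 replicates, but by 0.02 and 0.04 in replicates 1 and 2. All are intronless genes for leucine-zipper proteins that bind the same kind of DNA site. Levels and differences are given on the log2 intensity scale, on which 1 unit is a doubling. A call means a Benjamini-Hochberg adjusted p under 0.05 in limma over all 27022 probe sets kept. Without a block, 0 of the 16 probe sets were called. With the replicate number as a block, Cebpd and Cebpb 1418901_AT were called, and Cebpa and the second Cebpb probe set were not. In bulk RNA such as this, fewer cells of a type and less RNA per cell cannot be told apart.

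Cebpd lies at chr16:15887286-15889545 and encodes C/EBP delta, an acute-phase factor that maturing granulocytes also express. Its probe set 1423233_AT read 12.16, 12.34 and 12.42 in null replicates 1, 2 and 3, against 11.90, 12.09 and 12.03 in the wild-type replicates. The lowest null array thus lay above the highest wild-type array. The genotypes failed to overlap, in either direction, for 16.8% of all probe sets kept. The means were 12.31 ± 0.14 in null and 12.01 ± 0.09 in wild-type arrays (SD, n = 3 each), so the null signal was 123% of the wild-type one. Within replicates 1, 2 and 3 the null array was higher by 0.25, 0.25 and 0.39. The difference of 0.30 (SE 0.09) did not pass when arrays were treated as unpaired (limma adjusted p = 0.280, unadjusted p = 0.00963). With the replicate number as a block it did (SE 0.04, limma adjusted p = 0.00771, 95% confidence interval 0.20 to 0.40). Without the intensity trend in the variance the blocked call was lost (limma adjusted p = 0.0984).

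Cebpb, at chr2:167688915-167690432, encodes C/EBP beta, which drives granulocyte production under stress and serves macrophages as well. Probe set 1418901_AT read 11.77, 12.06 and 12.32 in null replicates 1, 2 and 3, against 11.92, 12.43 and 12.44 in the wild-type ones. The genotypes overlapped, because the wild-type replicate 1 array lay below null replicates 2 and 3, but each null array was below the wild-type array of its own number, by 0.15, 0.36 and 0.12. The mean was 12.05 ± 0.28 in null and 12.26 ± 0.30 in wild-type arrays (SD, n = 3 each), a null signal of 86.4% of wild type. The difference of -0.21 did not pass without the block (SE 0.18, limma adjusted p = 0.758) and passed narrowly with it (SE 0.05, limma adjusted p = 0.0453).

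The second Cebpb probe set, 1427844_A_AT, read 10.36, 10.68 and 10.93 in null against 10.38, 11.02 and 10.99 in wild-type arrays. It too was lower in all 3 null arrays than in their wild-type counterparts, but in replicate 1 by as little as 0.02. Its difference of -0.14 passed in neither fit (limma adjusted p = 0.878 without and 0.219 with the block), and the mean of both Cebpb probe sets, at -0.18, did not pass with the block (limma adjusted p = 0.102). The blocked call of 1418901_AT was also lost without the replicate 2 pair, where the difference was -0.13 (limma adjusted p = 0.265), without the replicate 1 pair (limma adjusted p = 0.0533) and without the intensity trend (limma adjusted p = 0.201).

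Cebpa, at chr7:35119293-35121928, encodes C/EBP alpha, without which granulocytes do not form. Probe set 1418982_AT read 10.01, 10.27 and 10.66 in null replicates 1, 2 and 3, against 10.00, 10.23 and 10.23 in the wild-type replicates. Null replicate 3 stood above all other arrays, and the remaining null arrays lay within 0.04 of their wild-type counterparts. The mean difference of 0.16 (SE 0.17) did not pass in either fit (limma adjusted p = 0.805 without and 0.261 with the block). Without null replicate 3 it was -0.01, and in the blocked fit without the replicate 3 pair it was 0.03.

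**Figure D1:**
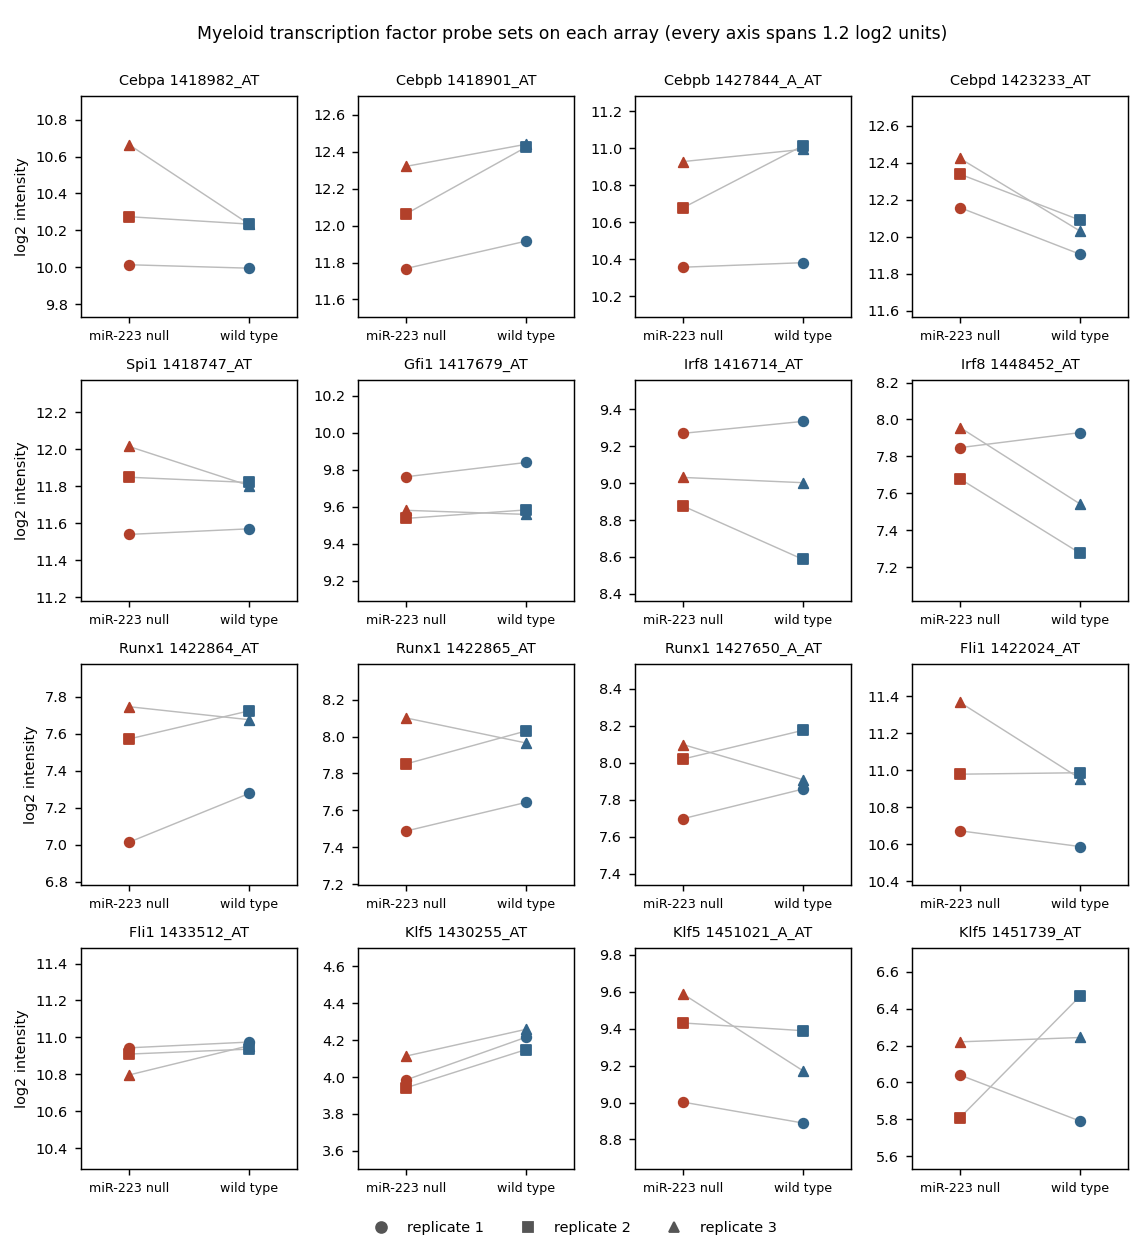
Level of each of the 16 probe sets on each array (vertical axes, log2 intensity, each spanning 1.2 log2 units), miR-223 null at left and wild type at right; marker shape gives the replicate number and a line joins the arrays of 1 number. For Cebpd every null array lies above every wild-type array, for Cebpb every null array lies below the wild-type array of its number, and for most other factors the replicate 1 arrays of both genotypes lie together, apart from the rest.

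Within the C/EBP genes, mean levels were higher in null for Cebpd and Cebpa and lower for Cebpb. Cebpa was not called in either fit, and its difference was -0.01 without null replicate 3. The mean of both Cebpb probe sets did not pass with the block (limma adjusted p = 0.102). To set the genes side by side within each array, the log2 level of 1 probe set was subtracted from that of another. The change of that difference between genotypes was then compared. Such a difference tells of unequal change, not of the relative amounts of the RNAs. Cebpd 1423233_AT minus Cebpb 1418901_AT was 0.39, 0.28 and 0.10 in null replicates 1, 2 and 3, against -0.01, -0.34 and -0.41 in the wild-type ones. The genotypes did not overlap, and the mean difference was 0.51 higher in null arrays, by 0.40, 0.61 and 0.51 within replicates. Cebpa 1418982_AT minus Cebpb 1418901_AT, at -1.75, -1.79 and -1.66 in null against -1.92, -2.19 and -2.21 in wild-type arrays, was 0.37 higher in null and also did not overlap. In an exact two-sided permutation test both gave p = 0.1, which is the lowest value open to a 3 against 3 design, and 0.25 after Benjamini-Hochberg adjustment over the 5 such differences computed. The same differences taken with the second Cebpb probe set were 0.44 and 0.31 higher in null and overlapped (exact two-sided permutation p = 0.2 each). Cebpd minus Cebpa differed by 0.14, with overlap (exact two-sided permutation p = 0.4). These differences were chosen after the single values had been seen, and no such test could pass 0.05 here. No conclusion is drawn from the tests. Both differences without overlap share Cebpb 1418901_AT. How often differences between other probe sets fail to overlap was not computed.

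**Figure D2:**
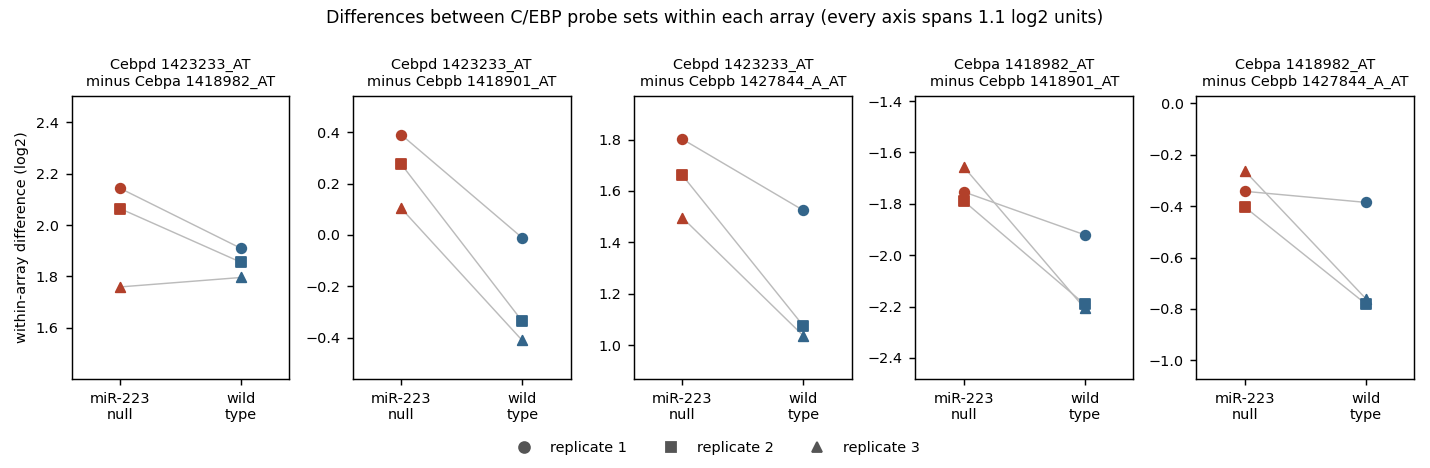
Difference between 2 C/EBP probe sets within each array (vertical axes, log2, each spanning 1.1 log2 units) for the 5 pairs of genes and probe sets, miR-223 null at left and wild type at right; marker shape gives the replicate. Cebpd minus Cebpb and Cebpa minus Cebpb, taken with probe set 1418901_AT, lie higher in all 3 null arrays than in any wild-type array.

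Spi1, Runx1 and Fli1, which act with the C/EBP factors at many myeloid genes, had no difference between genotypes that passed. Spi1 (chr2:91082374-91115759) encodes the ETS-family protein PU.1, which is required for both neutrophils and macrophages. Probe set 1418747_AT read 11.54, 11.85 and 12.02 in null against 11.57, 11.82 and 11.80 in wild-type arrays. The genotypes overlapped, with the replicate 1 array lowest in each. The difference was 0.07 (SE 0.13, limma adjusted p = 0.912), and with the block its 95% confidence interval ran from -0.05 to 0.19 (limma adjusted p = 0.458).

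Runx1 (chr16:92601466-92826074) encodes the DNA-binding part of core binding factor, needed for blood stem cells to arise and for later myeloid gene expression. Probe set 1422864_AT read 7.01, 7.57 and 7.75 in null against 7.28, 7.72 and 7.68 in wild-type arrays. Probe set 1422865_AT read 7.49, 7.85 and 8.10 in null against 7.64, 8.03 and 7.96 in wild-type arrays. For both, the null array was the lower one in replicates 1 and 2 and the higher one in replicate 3. The third, 1427650_A_AT, read 7.70, 8.02 and 8.10 in null against 7.86, 8.18 and 7.91 in wild-type arrays and had the same order within replicates. The differences of the 3 probe sets were -0.12, -0.07 and -0.04 (limma adjusted p = 0.911, 0.943 and 0.959), and the mean of all 3 differed by -0.07, with a blocked 95% confidence interval from -0.28 to 0.13 (limma adjusted p = 0.654).

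Fli1 (chr9:32422204-32543432) encodes an ETS-family protein best known from megakaryocytes. Its 2 probe sets disagreed. Probe set 1422024_AT read 10.67, 10.98 and 11.37 in null against 10.59, 10.99 and 10.95 in wild-type arrays, so null replicate 3 was the highest array. Probe set 1433512_AT read 10.94, 10.91 and 10.80 in null against 10.97, 10.94 and 10.96 in wild-type arrays, and null replicate 3 was the lowest. Their differences were 0.16 and -0.07, and neither was called, with limma adjusted p = 0.830 and 0.805 without the block and 0.230 and 0.385 with it. Without null replicate 3 the first was -0.02 and the second -0.03, so the disagreement rested largely on that array. 1433512_AT was lower in null in 3 of 3 replicates.

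Gfi1 and Irf8, the factors that pull the shared progenitor towards neutrophils and towards monocytes, gave no call either. Gfi1 (chr5:107716655-107725805) encodes a zinc-finger repressor. Probe set 1417679_AT read 9.76, 9.54 and 9.58 in null against 9.84, 9.58 and 9.56 in wild-type arrays. The genotypes overlapped and differed by -0.03 (SE 0.12, limma adjusted p = 0.957). With the block the 95% confidence interval was -0.15 to 0.09 (limma adjusted p = 0.744), among the narrowest of the 16.

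For Irf8 (chr8:120736358-120756694), an interferon regulatory factor, probe set 1416714_AT read 9.27, 8.88 and 9.03 in null against 9.33, 8.59 and 9.002 in wild-type arrays. Probe set 1448452_AT read 7.85, 7.68 and 7.96 in null against 7.93, 7.27 and 7.54 in wild-type arrays. In replicate 1 both probe sets were slightly lower in the null array, and in replicates 2 and 3 both were higher, by 0.29 and 0.03 for the first and by 0.40 and 0.41 for the second. Over all arrays the differences were 0.08 and 0.25, and the larger passed in neither fit (limma adjusted p = 0.697 without and 0.206 with the block). It did pass in the blocked fit without the replicate 1 pair (difference 0.41, limma adjusted p = 0.0415), but not on the same 4 arrays without the block (limma adjusted p = 0.144). Markers of monocytes could not be set beside Irf8, because other probe sets have no gene names here, so a part of other cells in its level was not tested.

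Klf5 (chr14:99298691-99313412), a Krüppel-like zinc-finger gene with a known role in granulocyte differentiation, was read by 3 probe sets that disagreed. The brightest, 1451021_A_AT, read 9.002, 9.43 and 9.59 in null against 8.89, 9.39 and 9.17 in wild-type arrays. It was higher in null in 3 of 3 replicates, by 0.11, 0.04 and 0.42, and its difference of 0.19 did not pass (limma adjusted p = 0.789 without and 0.178 with the block). Probe set 1451739_AT, at 6.04, 5.81 and 6.22 in null against 5.79, 6.47 and 6.24 in wild-type arrays, was higher in null in replicate 1 and lower in the others. The dimmest, 1430255_AT, read 3.98, 3.94 and 4.11 in null against 4.22, 4.15 and 4.26 in wild-type arrays. Every null array lay below every wild-type array, but the signal was near 4.08, the lowest mean that the filter on dim probe sets let through. Its difference of -0.19 did not pass (limma adjusted p = 0.501 without and 0.280 with the block). Over the 3 Klf5 probe sets the differences ranged from -0.19 to 0.19, and their mean was -0.05.

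Read as a set, the 16 probe sets were called about as often as the array as a whole, and their differences were small. All 16 passed the filter on dim probe sets. Without the block 0 of the 16 were called in limma, against 0.189% of all probe sets kept, and 1 had an unadjusted p under 0.05. With the block 2 were called, Cebpd higher and Cebpb 1418901_AT lower, where 10.0% of all probe sets were called (4.96% higher and 5.05% lower in null), and 3 had an unadjusted p under 0.05. A share of 2 in 16 is near that background. The genotypes did not overlap for 2 of the 16, Cebpd and Klf5 1430255_AT, against 16.8% of all. All 3 replicates differed in 1 direction for 7 of the 16, against 46.6% of all. Of these, 3 were higher in null (21.6% of all) and 4 lower (25.0% of all). The median difference was -0.04 over the 16 and -0.01 over all probe sets kept, with a median size of 0.14 against 0.11. For the 14 probe sets not called with the block, the 95% confidence intervals lay between -0.53 (Klf5 1451739_AT) and 0.50 (Irf8 1448452_AT). Others were narrower, such as -0.15 to 0.09 for Gfi1. Changes inside the interval of a probe set are not shown to be absent.

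**Figure D3:**
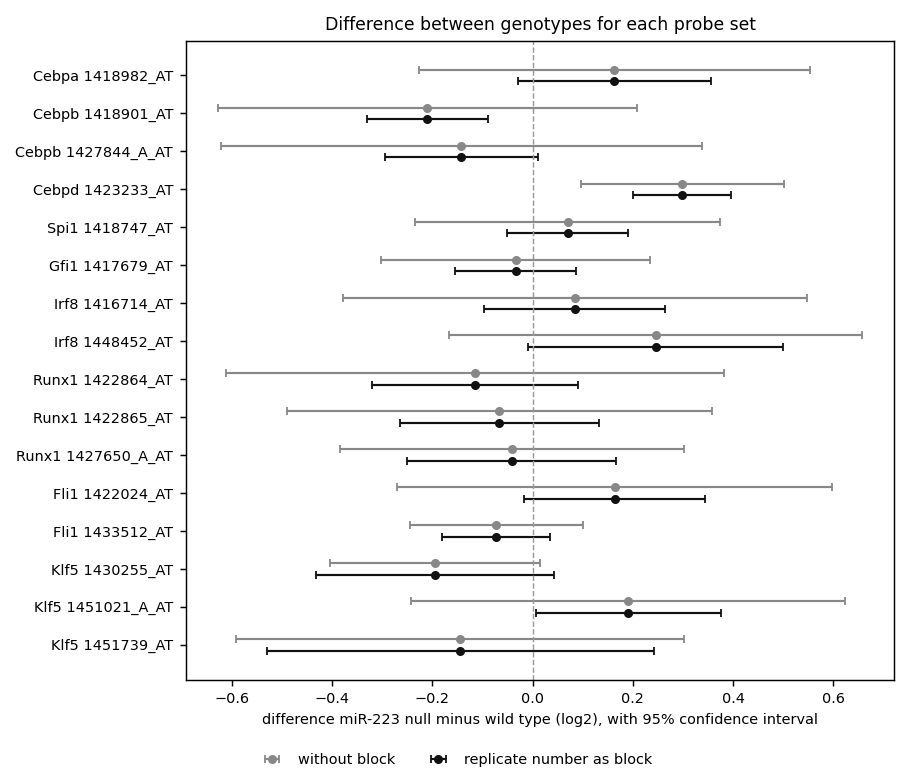
Difference between genotypes for each probe set (horizontal axis, miR-223 null minus wild type, log2) with its 95% confidence interval from limma, without a block (grey) and with the replicate number as a block (black). With the block the intervals of Cebpd, Cebpb 1418901_AT and Klf5 1451021_A_AT leave out 0, of which the first and second have an adjusted p under 0.05.

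The replicate 1 arrays stood apart from replicates 2 and 3 for many of the 16 probe sets. In 11 of the 16 probe sets, the replicate 1 array stood further from the mean of replicates 2 and 3, in each genotype, than the genotypes stood from each other, against 52.3% of all kept. This was thus common on these arrays. A single array set against a mean of 2 also varies more than a mean of 3 against a mean of 3. Both replicate 1 arrays lay below the other 4 for 9 of the 16 probe sets, against 20.0% of all kept. These read Cebpa, Cebpb, Spi1, Runx1, Fli1 and Klf5. Both lay above the other 4 for 2 of the 16, Gfi1 and Irf8 1416714_AT, against 19.6% of all. So 8 of the 9 genes had at least 1 probe set on which replicate 1 stood apart in both genotypes, and the exception was Cebpd. The genotypes did not overlap for Cebpd, so its probe set could not meet this criterion. Replicate 1 was still its lowest array within each genotype. For Fli1, Irf8 and Klf5 this held for only 1 of several probe sets, and genes with several have more occasions to qualify. A share by gene over the whole array was not computed. Probe sets of 1 gene are not independent. The split of replicate 1 from the rest was chosen after the values had been seen and was not tested.

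The size of the shift varied between genes and between genotypes. For Spi1 the replicate 1 array differed from the mean of replicates 2 and 3 by -0.39 in null and -0.24 in wild type, and for Cebpa by -0.46 and -0.24. For Cebpb 1427844_A_AT the values were -0.45 in null and -0.62 in wild type, and for Runx1 1422864_AT -0.65 and -0.42. Gfi1 went the other way, by 0.20 in null and 0.27 in wild type, as did Irf8 1416714_AT, by 0.32 and 0.54. In these cultures replicate 1 of either genotype read lower for the C/EBP genes Cebpa and Cebpb and for Spi1, and higher for Gfi1 and Irf8 1416714_AT. For Cebpd the shift was -0.22 in null and -0.15 in wild type, smaller than its difference between genotypes.

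Null replicate 3 gave the highest value of the 3 null arrays for 13 of the 16 transcription factor probe sets (34.3% of all kept) and the highest of all 6 arrays for 8 (19.2% of all kept). It exceeded null replicate 2 by 0.39 for Cebpa, 0.39 for Fli1 1422024_AT, 0.26 for Cebpb 1418901_AT and 0.17 for Spi1, on the log2 scale. Wild-type replicate 3 minus replicate 2 was -0.00031 for Cebpa, -0.03 for Fli1 1422024_AT, 0.02 for Cebpb 1418901_AT and -0.02 for Spi1. For other probe sets these wild-type arrays differed more, by 0.42 for Irf8 1416714_AT and 0.27 for Irf8 1448452_AT. They differed by -0.27 for Runx1 1427650_A_AT, -0.23 for Klf5 1451739_AT and -0.22 for Klf5 1451021_A_AT. In null arrays the Irf8 values were 0.15 and 0.28, and Fli1 1433512_AT was at -0.11. The pattern was noticed in the values and was not tested.

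What the replicate number stands for is not given in the labels. Some array measures set the replicate 1 arrays apart from the others. Spiked poly-A controls averaged 9.08 on null replicate 1 and 8.95 on wild-type replicate 1, against 8.32 to 8.73 on the other 4 arrays. The 3' minus 5' difference of beta-actin was 0.28 and 0.26 on these arrays, against 0.15 to 0.21, while that of Gapdh was -0.11 and -0.09, against -0.06 to 0.07. The Trp control probe sets went opposite ways, at 2.77 on null replicate 1 and 2.86 on wild-type replicate 1, against 2.78 to 2.85. Their part in the levels of the 9 genes was not tested.

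**Figure D4:**
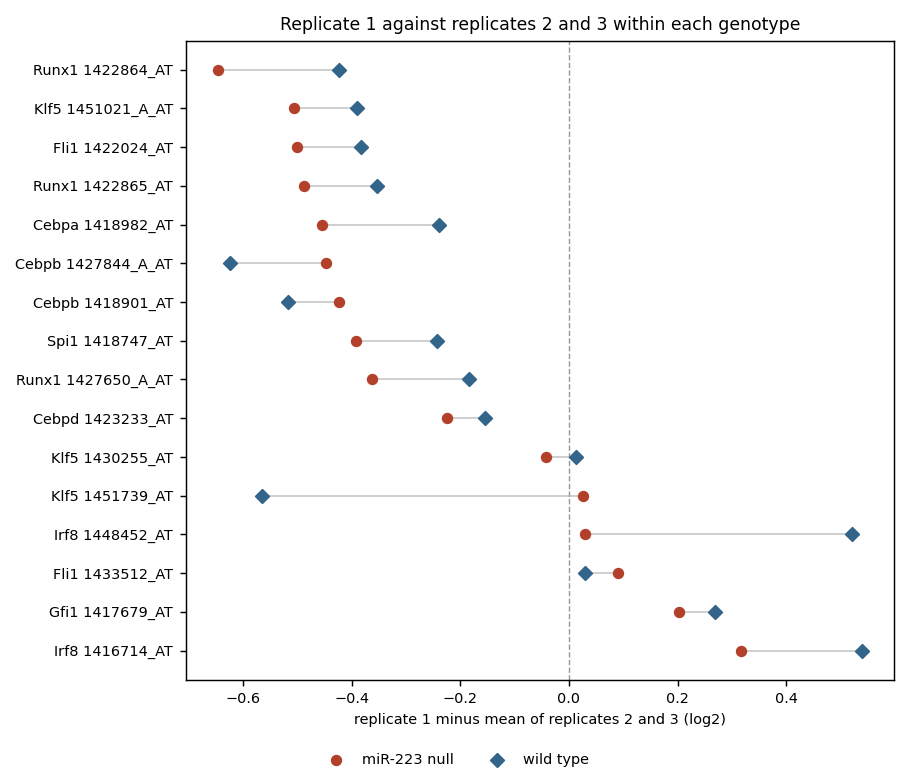
Replicate 1 minus the mean of replicates 2 and 3 within each genotype (horizontal axis, log2) for the 16 probe sets, sorted by the value in miR-223 null; circles are null and diamonds wild type. Probe sets for Runx1, Cebpa, Cebpb, Cebpd and Spi1, with Fli1 1422024_AT and Klf5 1451021_A_AT, lie left of 0 in both genotypes. Gfi1, both Irf8 probe sets and Fli1 1433512_AT lie right of 0 in both.

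Likeness across the 6 arrays was described by Pearson's r between the brightest probe set of each gene and the probe sets of the other genes, since only these carry names. The replicate 1 arrays stand together for many of these probe sets and null replicate 3 stands high for several, so the values describe these 6 arrays and were given no test. Cebpa was most like Fli1 1422024_AT (r = 0.985) and Spi1 (r = 0.949) over 6 arrays, and least like the other Fli1 probe set, 1433512_AT (r = -0.930). Spi1 was likewise most like Fli1 1422024_AT (r = 0.973). Cebpb was most like Runx1 1422865_AT (r = 0.933), and Klf5 1451021_A_AT most like Spi1 (r = 0.947). Gfi1 and Irf8 1416714_AT were most like each other (r = 0.783), and Gfi1 was the least like Spi1 (r = -0.850). Cebpd had the closest match in Klf5 1451021_A_AT (r = 0.819).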

How the data were processed

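RNA of 3 miR-223 null and 3 wild-type cultures was hybridised to Affymetrix mouse arrays. The deposited table holds log2 intensity values, already on one scale (array medians 4.71 to 4.73, maxima near 15.0), and was used as it stands. The base was read from this range. The submitters' processing notes name GCOS, and how background was corrected and arrays were normalized is not given in the sources used here. Scaling arrays to one distribution hides any change in total RNA, so differences are relative.

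After 64 control probe sets were set aside, 27022 of 45037 with a mean over all arrays at or above the 40th percentile were tested by limma 3.58.1 in R 4.3.3 (lmFit, eBayes with intensity trend), two-sided, Benjamini-Hochberg adjusted over all 27022 (adjusted p under 0.05). The fit has no covariate, and the replicate number as a block is its alternative. Deviations from the genotype means correlated at 0.70, 0.30 and 0.48 between same-numbered arrays, all above 0.1, so arrays of 1 number were treated as pairs. This pairing comes from the data. Between differently numbered arrays, null replicate 3 correlated at 0.41 with wild-type replicate 2, and null replicate 2 at 0.21 with wild-type replicate 3. Both are also above 0.1. Where just 1 of the arrays was a replicate 1, the values ran from -0.60 to -0.34. Replicate 1 stands apart in both genotypes, so the check cannot tell replicates 2 and 3 from each other. The fits were tested on simulated data before use. The planted differences were larger than those of the 16 probe sets, and both genotypes were given the same replicate effect. That simulation therefore cannot show how differences this small fare, or whether the pairing holds.

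Other alternatives were no filter, the 60th percentile, quantile normalization, median centring, no intensity trend, 1 value per gene (mean of its probe sets), leaving out arrays or pairs, and an adjusted p under 0.01. Leaving out both replicate 1 arrays, and a block of replicate 1 against the others, were added after seeing the data. The members and lists were chosen with earlier results of these data known. Named were all 16 probe sets and, for likeness, the closest named probe sets of other genes. Fixed lists of other transcription factors, of targets and partners of these factors and of cell type markers were not run, as no table pairs their genes with probe sets, so the neutrophil label was not checked against markers.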

Additional observations from a re-analysis of the deposited data

How the results depend on the processing

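Of 16 probe sets for the transcription factors, 0 were called in the fit without a block, and this count was 0 with no filter, the 60th percentile filter, quantile normalization, median centring, no intensity trend, 1 value per gene, an adjusted p under 0.01 and each array left out in turn. It was 2 with the replicate block, 0 with the block but no intensity trend, 1 with 1 value per gene and the block, 1 to 2 when a replicate pair was left out of the blocked fit, 1 without both replicate 1 arrays and 1 with a block of replicate 1 against the others. Over all 27022 probe sets the count of 51 became 2703 with the replicate block, 191 without the intensity trend in that fit, 2702 with 1 value per gene and the block, 2045, 606 and 2319 with the pair of replicate 1, 2 or 3 left out of it, 1072 without both replicate 1 arrays, 2417 with the block of replicate 1 and 2 at an adjusted p under 0.01. It was 0 to 58 with 1 array left out, and 0 without null replicate 2 or wild-type replicate 2, where 2064 and 1753 had an unadjusted limma p under 0.05. Without null or wild-type replicate 1, with as many arrays in the fit, it was 58 and 34. The cause of these shifts was not tested.

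Cebpd kept its direction in all settings run, at 0.24 to 0.37, and was called in every blocked fit except the one without the intensity trend, where the adjusted p was 0.0984. It was also called without both replicate 1 arrays (difference 0.32, limma adjusted p = 0.0207). Over its alternatives the adjusted p ran from 0.00483 to 0.634. Cebpb 1418901_AT stayed lower throughout, at -0.38 to -0.07. With all 6 arrays the replicate block changed no other call among the 16. Without the replicate 1 pair it also called Irf8 1448452_AT (limma adjusted p = 0.0415). The 6 probe sets that never changed sign were these, Irf8 1448452_AT, Fli1 1433512_AT, Klf5 1430255_AT and Klf5 1451021_A_AT. The other 10 changed sign 21 times over all settings, never with a call. With 1 array left out, the differences ran from -0.010 to 0.32 for Cebpa, -0.35 to 0.0064 for Cebpb 1427844_A_AT, -0.037 to 0.20 for Spi1, -0.10 to 0.056 for Gfi1, -0.11 to 0.26 for Irf8 1416714_AT, -0.27 to 0.10, -0.21 to 0.10 and -0.12 to 0.079 for Runx1 1422864_AT, 1422865_AT and 1427650_A_AT, -0.017 to 0.33 for Fli1 1422024_AT and -0.33 to 0.0062 for Klf5 1451739_AT. With a pair left out of the replicate block, they were -0.00091 for Spi1 without replicate 3, -0.018 for Irf8 1416714_AT and 0.11 for Klf5 1451739_AT without replicate 2, and 0.018 and 0.015 for Runx1 1427650_A_AT without replicate 1 and without replicate 2. Without both replicate 1 arrays and with no block, Runx1 1427650_A_AT was at 0.018. Klf5 1430255_AT lies below the 60th percentile and has no value there. Its signal near the filter limits what it can show, and the number of arrays limits precision throughout.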
